A study of Homo sapiens with 4 samples.

Results

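Integrins are the receptors through which fibroblasts hold the extracellular matrix, and the 10 integrin subunit genes described here encode those that bind collagen, fibronectin and vitronectin. They were taken by name, as the rows of the count table with their Ensembl gene IDs, and all 10 were found among 57820 gene IDs. They comprise the collagen-binding alpha subunits ITGA1, ITGA2, ITGA10 and ITGA11, the alpha subunits ITGA5, ITGA8 and ITGAV that recognise the RGD motif (arginine, glycine, aspartate), and the beta subunits ITGB1, ITGB3 and ITGB5. RNA was measured by sequencing in IMR-90, a fibroblast line from human fetal lung, in confluent RB1 KO cultures and confluent wild-type cultures, with 2 libraries of each genotype. RB1 encodes the retinoblastoma protein. The RB1 KO cells were a pool of puromycin-resistant cells that had received Cas9 and a guide to the translation start of RB1 by lentivirus, and not a clone. No transduced and selected control is described for the wild-type cells, so loss of RB1 cannot be told apart from transduction, Cas9 or selection. Both genotypes grew in the same DMEM with serum. Nothing states that the replicates were separate cultures, and the p-values therefore reflect only the variation among these 4 libraries, which could be technical.

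An integrin is a pair of 1 alpha and 1 beta chain, and the pair sets the ligand. The collagen-binding alpha chains carry an inserted I domain and pair with ITGB1 alone. ITGA5 and ITGA8 also pair only with ITGB1, whereas ITGAV pairs with ITGB1, ITGB3, ITGB5 and other beta chains. On the cytoplasmic side the beta tails bind talin and kindlin, which connect the receptor to actin in adhesion plaques. Fibroblasts use these receptors to spread, to pull on collagen fibrils and to assemble fibronectin, and several ITGAV pairs release active TGF-beta from its latent form.

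Counts assigned to genes came to 33480111 and 34247292 in RB1 KO libraries, against 32827737 and 30873239 in wild-type libraries. Of all genes, 16426 passed the filter on low counts and were tested by the quasi-likelihood method of edgeR. Adjusted p-values follow Benjamini and Hochberg over all of these genes, with calls at an adjusted p under 0.1. RB1 had 2802 and 2629 counts in RB1 KO and 2545 and 2392 counts in wild-type libraries, with a log2 fold change of 0.12 (edgeR, adjusted p = 0.507). Edits at a translation start can leave the RNA level as it was, and this value is no check of the genotype. The paper checked the disruption of RB1 at the protein level, by Western blot. The 8 fibroblast markers summed to 37651 and 34527 CPM (counts scaled to a common library size with TMM factors) in RB1 KO and 27931 and 28729 CPM in wild-type libraries, of which the collagen I genes COL1A1 and COL1A2 held most. Of the 8, the proteoglycan gene LUM was called higher (0.68, edgeR, adjusted p = 0.0245), with 216 and 178 CPM in RB1 KO libraries against 126 and 119 CPM in wild-type libraries. Summed markers of epithelial, endothelial and leukocyte cells stayed at or under 2.22 CPM in each library, with CDH1, KRT5, SFTPC, CDH5, CD3E and TYROBP at 0 in all 4. The endothelial sum leaves out the listed marker PECAM1, which was not paired with a gene ID. In such bulk samples, fewer cells of a type and less RNA per cell cannot be told apart.

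All 10 integrin subunit genes passed the filter on low counts. ITGA1, ITGA8 and ITGB5, that is 1 of each class, were higher in RB1 KO cells, 0 were lower and 7 did not pass. Over all genes tested 1.99% were called higher and 0.907% lower, 2.9% in all. These were 327 and 149 genes, against 221 higher and 326 lower with library totals as the scaling and 11 higher and 168 lower with ERCC factors. All 10 log2 fold changes were positive with the TMM scaling, against 48.3% of all genes tested, but 8 of the 10 were negative when libraries were scaled to their ERCC spike-in RNA, which moved the median of all genes to -0.49. The median of the 10 was 0.26 with TMM, beside -0.01 over all genes. Relative to the median of all genes it was 0.27 with TMM and 0.26 with the ERCC scaling, and all 10 lay above that median with both. Both RB1 KO libraries lay above both wild-type libraries in 9 of the 10 genes, where 22.5% of all genes tested did so and 24.3% had both RB1 KO libraries below, as 0 of the 10 had. At an unadjusted p under 0.05, 6 were higher and 0 lower, against 1341 (8.16%) higher and 1175 lower of all 16426 genes tested. At an adjusted p under 0.05 ITGA1 was the only member called. DESeq2, at an adjusted p under 0.1, called 2 of the 10 higher and 0 lower, beside 426 higher and 158 lower over all genes.

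**Figure D1:**
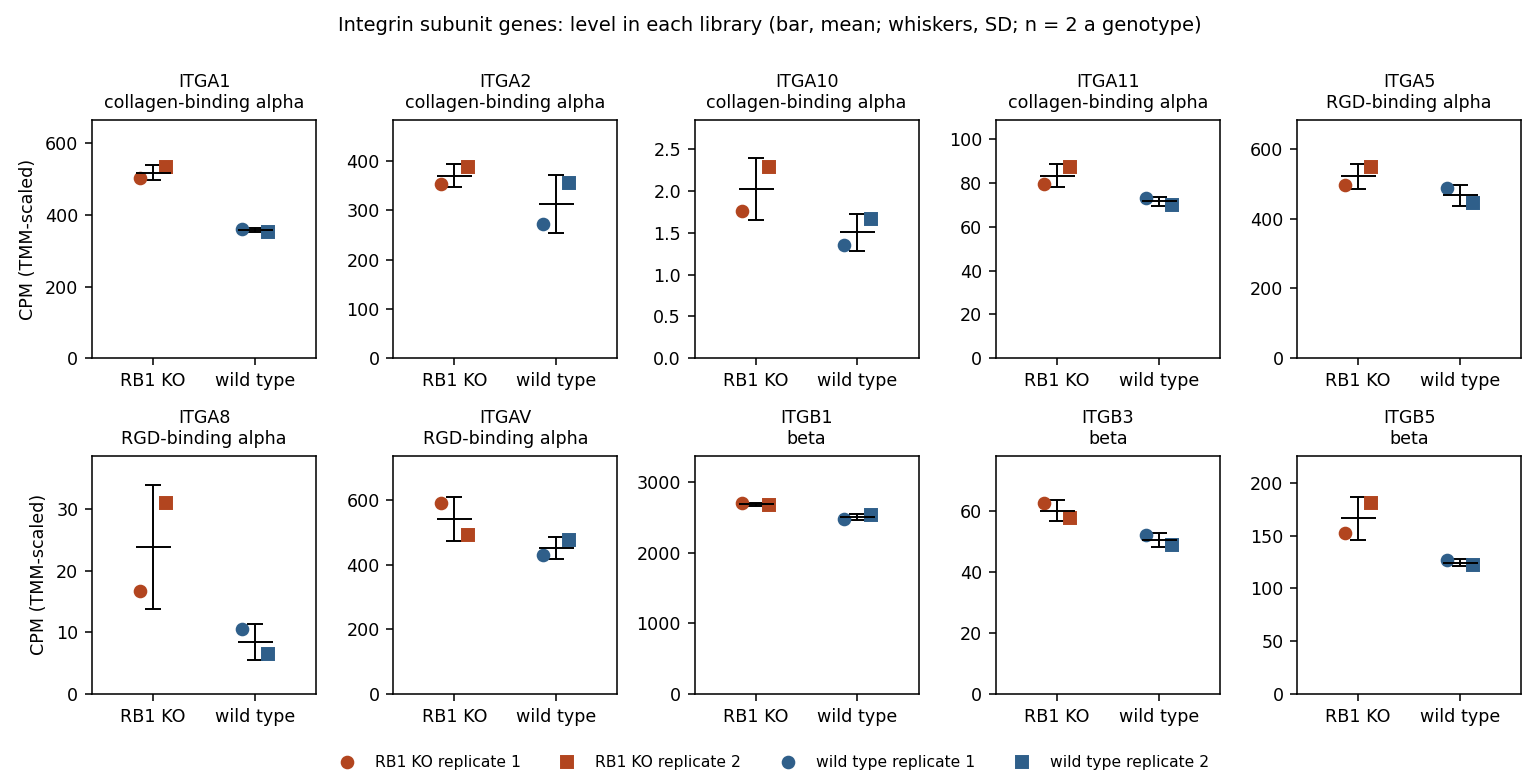
Level of each integrin subunit gene in every library, in CPM after TMM scaling on a linear axis from 0, with RB1 KO left of wild type, a bar for the mean and whiskers for the SD (n = 2). The RB1 KO points lie above the wild-type points in every panel except ITGA2, and relative to their mean the RB1 KO points lie farthest apart in ITGA8 (16.7 and 30.9 CPM).

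The sequences before the start sites of the 3 genes that passed are shown because RB1 acts at promoters through E2F factors. Whether these sequences bear on the RNA levels was not tested. Each is the 250 bases upstream of the annotated start of the canonical transcript, from RefSeq (GRCh38.p14) and placed on GRCh37 by an exact match. Capitals mark the Sp1 letters GGGCGG on either strand.
ITGA1: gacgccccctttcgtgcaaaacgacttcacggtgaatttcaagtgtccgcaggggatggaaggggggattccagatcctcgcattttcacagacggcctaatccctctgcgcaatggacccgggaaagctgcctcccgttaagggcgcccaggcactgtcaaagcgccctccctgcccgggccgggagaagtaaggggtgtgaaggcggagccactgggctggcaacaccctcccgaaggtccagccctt
ITGA8: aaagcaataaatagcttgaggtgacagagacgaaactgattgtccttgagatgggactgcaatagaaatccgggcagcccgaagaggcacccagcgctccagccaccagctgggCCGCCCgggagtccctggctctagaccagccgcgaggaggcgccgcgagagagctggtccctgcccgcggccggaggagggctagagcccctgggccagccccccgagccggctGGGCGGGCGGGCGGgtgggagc
ITGB5: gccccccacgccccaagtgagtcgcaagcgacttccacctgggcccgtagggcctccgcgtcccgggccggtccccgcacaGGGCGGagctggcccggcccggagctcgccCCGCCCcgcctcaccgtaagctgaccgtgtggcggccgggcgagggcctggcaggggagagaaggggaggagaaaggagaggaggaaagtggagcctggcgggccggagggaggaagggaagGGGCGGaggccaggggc
The ITGA1 window is chr5:52083500-52083749 on the plus strand and lies within the gene body, but in no exon, of PELO-AS1 on the other strand. The ITGA8 window is chr10:15761922-15762171 on the minus strand and overlaps no gene of the annotation used here. The ITGB5 window is chr3:124606213-124606462 on the minus strand, inside the ITGB5 gene, and 16 of its bases belong to an exon of another ITGB5 transcript.

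RefSeq promoters were matched for 9 of the 10 genes, with ITGB3 not matched. Letters were searched on both strands in the 250 bases before the start, with overlapping matches counted separately. The E2F letters TTTGGCGC, TTTCCCGC, TTTGCCGC or TTTCGCGC occurred in 0 of the 9 and in 2.79% of 35112 promoters. The AP-1 letters TGANTCA occurred in 0 of the 9 and in 6.57% of all, and the CArG box in 0 of the 9 and in 1.16% of all. The TEAD letters GGAATG occurred in ITGA10, ITGA5 and ITGB1, and in 11.9% of all promoters. The Sp1 letters occurred in ITGA2, ITGA5, ITGA8, ITGB1 and ITGB5, and in 42.6% of all. Among the 3 genes that were higher in RB1 KO cells, ITGA8 had 4 Sp1 matches, 3 of them overlapping in the run shown above, ITGB5 had 3 and ITGA1 had 0. These letters are a description of the windows and not a measurement of binding.

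ITGA1, the receptor chain that prefers the collagen of basement membranes, had the smallest p-value of the 10. Its level was 503 and 533 CPM in RB1 KO libraries, against 361 and 354 CPM in wild-type libraries. The replicates lay close to each other and the genotypes were apart, with the lower RB1 KO library 1.39 times the higher wild-type library. The log2 fold change was 0.54 (standard error 0.0749, edgeR, adjusted p = 0.0227), a 1.45-fold higher level with a 95% confidence interval of 1.29 to 1.63. With each library left out in turn the log2 fold change was 0.50 to 0.58. In such fits 1 genotype has a lone library, which is assumed to vary like the other genotype, so that calls kept or lost in them say little of stability. The call was lost with the ERCC scaling (0.06, adjusted p = 0.886). With the replicate number as a block the adjusted p was 0.0836.

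ITGA1 lies at chr5:52083750-52255039 on the plus strand (GRCh37), and its canonical transcript starts at the same annotated base as that of PELO, a ribosome rescue factor encoded in the same direction. PELO had 2032 and 2097 counts in RB1 KO libraries and 2269 and 1839 counts in wild-type libraries, which overlap. Its log2 fold change was -0.01 (edgeR, adjusted p = 0.965), with a 95% confidence interval of -0.22 to 0.20 that lies below that of ITGA1 (0.36 to 0.71), and the difference itself was not tested. There were 8.14 and 8.47 ITGA1 counts for each PELO count in RB1 KO libraries, against 5.30 and 6.12 in wild-type libraries. In the annotation used here the 2 genes share 499 exon bases, 2.69% of the ITGA1 exon length. A pseudogene on the same strand, RPL17P21, shares 571 exon bases with ITGA1 (3.08%) and had 0 counts. Reads confined to such stretches would be left out as ambiguous if the annotation used for counting held the same exons. An antisense gene, ITGA2-AS1, covers a further 7.47% of the ITGA1 exon bases and had at most 5 counts in a library.

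ITGA2, the receptor chain for fibrillar collagen that also lies on chromosome 5 (chr5:52285170-52390609, plus strand), did not pass. It had 354 and 387 CPM in RB1 KO libraries and 271 and 355 CPM in wild-type libraries. The ranges overlapped, because wild-type replicate 2 was as high as RB1 KO replicate 1. Its log2 fold change was 0.24 (standard error 0.124, edgeR, adjusted p = 0.409), with 0.07 without wild-type replicate 1 and 0.45 without wild-type replicate 2.

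ITGA11 and ITGA10 complete the collagen-binding chains. ITGA11, which binds collagen I on fibroblasts (chr15:68588870-68724502, minus strand), had 79.7 and 87.1 CPM in RB1 KO libraries and 73.2 and 70.0 CPM in wild-type libraries. The groups did not overlap, but the log2 fold change of 0.22 (standard error 0.0757) missed the threshold (edgeR, adjusted p = 0.220). ITGA10, known best from cartilage (chr1:145524969-145543868, plus strand), had the fewest counts of the 10, with 58 and 76 counts in RB1 KO and 45 and 53 counts in wild-type libraries. At that depth its log2 fold change of 0.43 had a 95% confidence interval of -0.17 to 1.03 and no difference was detectable (edgeR, adjusted p = 0.495).

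Among the alpha chains for RGD ligands, ITGA8, a receptor chain for nephronectin and fibronectin found on mesenchymal and smooth muscle cells, had the largest fold change of the 10. Its level was 16.7 and 30.9 CPM in RB1 KO libraries, against 10.6 and 6.44 CPM in wild-type libraries, from 550, 1029, 352 and 205 counts. Both RB1 KO libraries lay above both wild-type libraries, by 1.58 times at the nearest, while the replicates themselves differed 1.85-fold in RB1 KO and 1.64-fold in wild type. The log2 fold change was 1.48 (standard error 0.305, edgeR, adjusted p = 0.0720), which is 2.80-fold with a 95% confidence interval of 1.71 to 4.56. Single libraries moved its size. Leaving out RB1 KO replicate 2 gave 0.98 and leaving out RB1 KO replicate 1 gave 1.86, while leaving out wild-type replicate 2 gave 1.17 and leaving out wild-type replicate 1 gave 1.90. It did not pass in DESeq2 (1.49, adjusted p = 0.142). ITGA8 lies at chr10:15555953-15761921 on the minus strand.

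The 6 markers of smooth muscle cells and pericytes, in which ITGA8 is also expressed, held genes called in both directions. They summed to 585 and 739 CPM in RB1 KO libraries and 641 and 482 CPM in wild-type libraries. The pericyte gene RGS5 was higher (log2 fold change 1.38, edgeR, adjusted p = 0.0712), with 67.9 and 35.5 CPM in RB1 KO libraries against 16.6 and 23.2 CPM in wild-type libraries. The smooth muscle myosin MYH11 (-0.85, adjusted p = 0.0487) and the intermediate filament gene DES (-1.68, adjusted p = 0.0761) were lower in the same edgeR test. RGS5 was highest in RB1 KO replicate 1 and ITGA8 in RB1 KO replicate 2. The part of such cells in the ITGA8 difference was not tested.

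Neither ITGAV nor ITGA5 passed. ITGAV, the chain shared by the vitronectin receptors (chr2:187454737-187545628, plus strand), had 590 and 493 CPM in RB1 KO libraries and 429 and 476 CPM in wild-type libraries. RB1 KO replicate 1 stood above the other 3 libraries. The log2 fold change was 0.26 (standard error 0.105, edgeR, adjusted p = 0.291), and 0.39 without RB1 KO replicate 2 against 0.13 without RB1 KO replicate 1. ITGA5, which with ITGB1 forms the main fibronectin receptor (chr12:54789045-54813050, minus strand), had 495 and 546 CPM in RB1 KO libraries and 488 and 446 CPM in wild-type libraries. The nearest libraries of the genotypes were almost level, and the log2 fold change was 0.16 (standard error 0.0871, edgeR, adjusted p = 0.444).

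Of the beta subunits, ITGB5, which pairs with ITGAV as a vitronectin receptor, was higher in RB1 KO cells. It had 152 and 181 CPM in RB1 KO libraries, against 127 and 122 CPM in wild-type libraries. The groups did not overlap, and the RB1 KO replicates were farther from each other than the wild-type replicates. The log2 fold change was 0.42 (standard error 0.0911, edgeR, adjusted p = 0.0770), or 1.34-fold. With each library left out in turn the log2 fold change of ITGB5 was 0.29 to 0.54. Its call was lost with the replicate number as a block (0.41, edgeR, adjusted p = 0.177). ITGB5 lies at chr3:124480795-124620265 on the minus strand.

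ITGB1, the common partner of most of these alpha chains (chr10:33176201-33294720, minus strand), had the smallest log2 fold change. Its level was 2695 and 2664 CPM in RB1 KO libraries and 2477 and 2535 CPM in wild-type libraries, which did not overlap. The log2 fold change was 0.10 with a 95% confidence interval of -0.12 to 0.32 (edgeR, adjusted p = 0.691). ITGB3, the other vitronectin receptor partner of ITGAV (chr17:45331193-45391109, plus strand), had 62.6 and 57.9 CPM in RB1 KO libraries and 52.3 and 49.0 CPM in wild-type libraries. The groups were separate and the log2 fold change was 0.25 (standard error 0.0802, edgeR, adjusted p = 0.193), with 0.20 to 0.31 when each library was left out in turn. ITGB3 shares 33.2% of its exon bases with a second annotated gene on its strand that had 0 counts. If the annotation used for counting held the same exons, reads in that stretch would be left out as ambiguous. The level of ITGB3 may therefore be counted low.

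**Figure D2:**
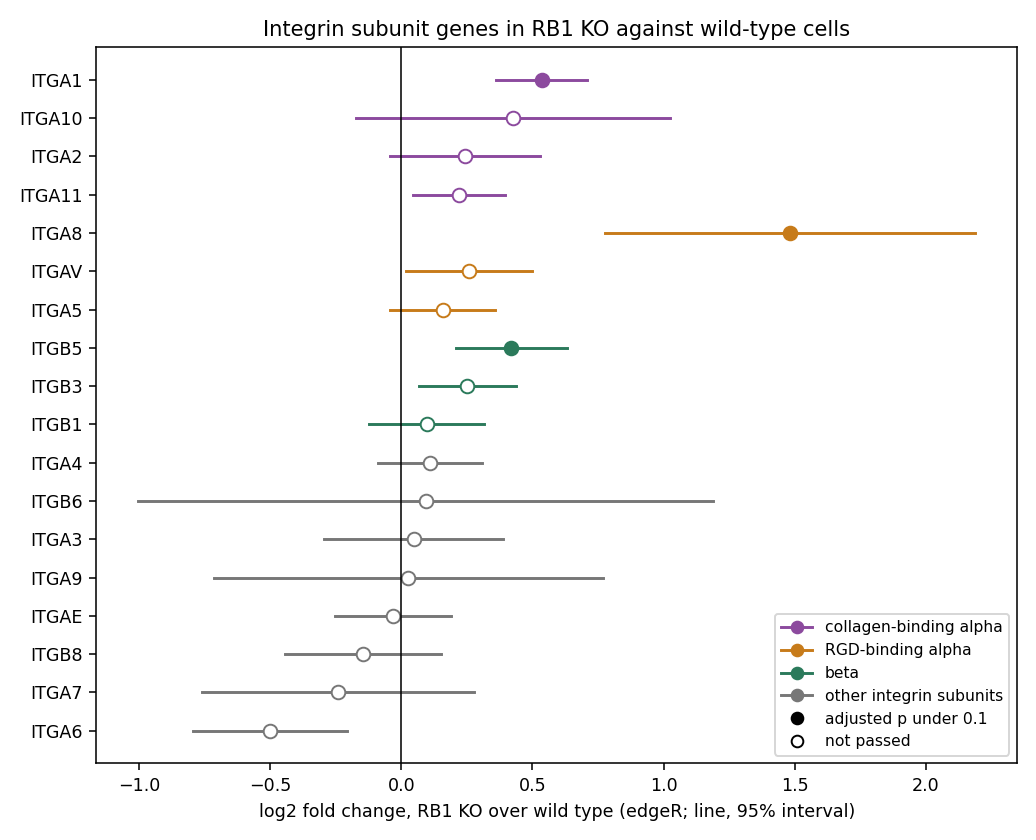
Log2 fold change of RB1 KO over wild type for the 10 genes and for the 8 other integrin subunits tested (points, with lines for the 95% confidence interval, n = 2 libraries a genotype). Filled points passed at an adjusted p under 0.1 and are ITGA1 (0.54), ITGA8 (1.48) and ITGB5 (0.42), while ITGA6 (-0.50) is lowest.

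The balance of collagen-binding and RGD-binding alpha chains with beta chains was compared next. The median log2 fold change was 0.33 for the collagen-binding alpha chains (1 of 4 higher), 0.26 for the alpha chains for RGD ligands (1 of 3 higher) and 0.25 for the beta chains (1 of 3 higher), and differences between classes were not tested. To compare levels between genes, CPM was divided by the length of the union of annotated exons in kb. On this per-length scale the collagen-binding alpha chains summed to 79.5 and 86.1 in RB1 KO libraries, against 60.8 and 70.7 in wild-type libraries. The alpha chains for RGD ligands summed to 99.8 and 104 in RB1 KO libraries, against 89.7 and 85.9 in wild-type libraries. The beta chains summed to 218 and 219 in RB1 KO libraries, against 197 and 200 in wild-type libraries. All 3 sums were separate between genotypes. The ratio of alpha to beta level per length was 0.824 and 0.866 in RB1 KO libraries, against 0.763 and 0.783 in wild-type libraries, also separate. Per length of the canonical transcript this ratio was 0.395 and 0.407 in RB1 KO libraries, against 0.361 and 0.362 in wild-type libraries. These sums and ratios leave out the other integrin subunits, depend on the length used and are given without a test.

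Within the alpha chains, the share of the per-length level held by ITGA1 was 15.1% in both RB1 KO libraries, against 12.9% and 12.2% in wild-type libraries. The share of ITGA8 was 1.27% and 2.22% in RB1 KO libraries, against 0.959% and 0.562% in wild-type libraries. The shares of the other 5 alpha chains overlapped between genotypes. The collagen-binding chains together held 44.3% and 45.4% in RB1 KO libraries, against 40.4% and 45.2% in wild-type libraries, and ITGA2 alone held 22.8% and 28.7% in those 2 wild-type libraries. Among the beta chains there was 7.92 and 6.60 times as much ITGB1 as ITGB5 per length in RB1 KO libraries, against 8.74 and 9.30 times in wild-type libraries. The groups were separate in that ratio, with RB1 KO below.

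The order of the genes by level per length was nearly the same in both genotypes. In RB1 KO cells ITGB1 led with 184 CPM per kb, ahead of ITGA5 (70.5), ITGA2 (46.9), ITGAV (28.0), ITGA1 (27.9) and ITGB5 (25.5). ITGB3 (8.82), ITGA11 (7.68), ITGA8 (3.25) and ITGA10 (0.324) followed. The libraries of ITGAV and ITGA1, and of ITGA1 and ITGB5, overlapped there and cannot be ordered. In wild-type cells the means were 172 CPM per kb for ITGB1, 63.2 for ITGA5, 39.6 for ITGA2, 23.4 for ITGAV, 19.3 for ITGA1 and 19.1 for ITGB5. ITGB3 (7.41), ITGA11 (6.59), ITGA8 (1.16) and ITGA10 (0.242) were lowest in wild type as well. Only ITGA1 and ITGB5 overlapped as neighbours in wild-type cells. The middle of this order depends on the length used, since per kb of the canonical transcript ITGAV came after ITGA5 and before ITGA2, with 76.9 in RB1 KO and 64.2 in wild-type cells.

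**Figure D3:**
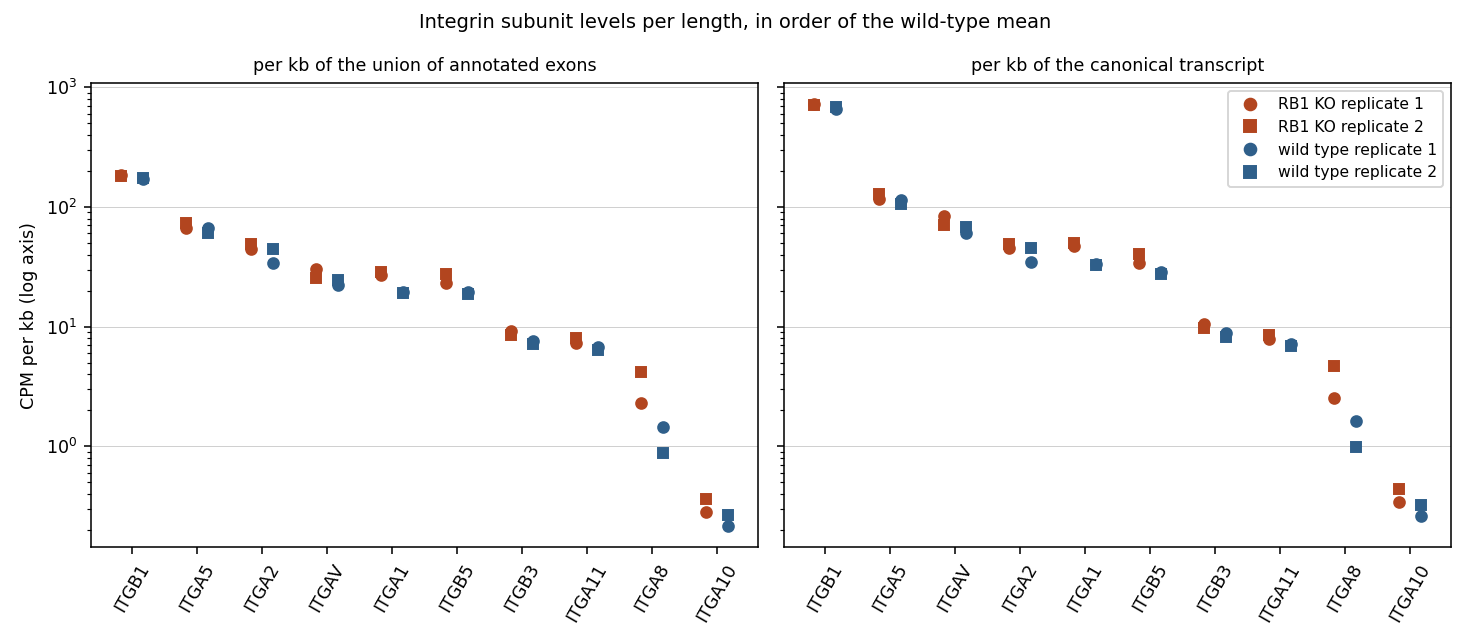
Level per length of each gene in every library, in CPM per kb on a log axis, with RB1 KO points left of wild-type points and genes in order of the wild-type mean, by the union of annotated exons (left) and by the canonical transcript (right). ITGB1 is highest and ITGA10 lowest by either length, and ITGA2 and ITGAV change places.

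Another 16 integrin subunit genes were read out for comparison, and 8 of them passed the filter on low counts. Of these 8, edgeR called 0 in either direction, at an unadjusted p under 0.05 there was 1 lower gene, and DESeq2 called 0 higher and 1 lower. Their median log2 fold change was -0.0024, with 4 positive and 4 negative. ITGA6, a chain of laminin receptors, had 31.6 and 39.0 CPM in RB1 KO libraries, against 54.6 and 45.2 CPM in wild-type libraries. Both RB1 KO libraries lay below both wild-type libraries, and its log2 fold change was -0.50 (standard error 0.127, edgeR, adjusted p = 0.120). DESeq2 called it lower (-0.49, adjusted p = 0.0330). The laminin receptor chains ITGA3 (0.05) and ITGA7 (-0.24), ITGA4 (0.11), which binds fibronectin outside its RGD site, the tenascin-binding ITGA9 (0.03), the E-cadherin-binding ITGAE (-0.03) and the ITGAV partners ITGB6 (0.09) and ITGB8 (-0.15) did not pass.

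The ligands of the collagen receptors were read out as 13 collagen genes, of fibrillar, basement membrane and other types, of which 12 were tested. In edgeR 0 were called, although at an unadjusted p under 0.05 there were 8 higher genes and 1 lower gene. Over all 16426 genes tested, 1341 were higher and 1175 lower at that threshold. The lower collagen gene, singled out after its value was seen, was COL16A1 (-0.16), a fibril-associated collagen. DESeq2 called 8 of the collagen genes higher and 0 lower, beside 426 higher and 158 lower over all genes. The median log2 fold change of the collagen genes was 0.29. COL1A1 had 15957 and 15139 CPM in RB1 KO libraries and 12628 and 12570 CPM in wild-type libraries, with a log2 fold change of 0.30 (edgeR, adjusted p = 0.336). COL1A2 had 0.45 (edgeR, adjusted p = 0.184). The non-integrin collagen receptors MRC2, an endocytic receptor (0.21), and DDR2, a collagen-activated kinase (0.14), did not pass, with 0 of 3 called by edgeR or by DESeq2 and 1 higher at an unadjusted p under 0.05.

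Of 18 ligands of the fibronectin and vitronectin receptors, 15 were tested, 2 were higher and 1 was lower, with a median log2 fold change of 0.10. FBN2, a microfibril protein with an RGD site, had 1325 and 1105 CPM in RB1 KO libraries, against 425 and 506 CPM in wild-type libraries (1.38, edgeR, adjusted p = 0.00665). EDIL3, a secreted RGD protein that binds ITGAV receptors, had 403 and 337 CPM in RB1 KO libraries against 246 CPM in both wild-type libraries (0.59, edgeR, adjusted p = 0.0339). POSTN, the matricellular protein periostin, was lower, with 283 and 351 CPM in RB1 KO libraries against 652 and 557 CPM in wild-type libraries (-0.93, edgeR, adjusted p = 0.0186). The genotypes did not overlap in these 3 genes, which adds little because they were called from the same 4 libraries. Of the 15 tested, 7 had both RB1 KO libraries above both wild-type libraries and 2 had both below. Over all genes tested these shares were 22.5% and 24.3%.

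On the cytoplasmic side, 27 of 28 adhesion plaque genes were tested and edgeR called 0. At an unadjusted p under 0.05 there were 4 higher genes and 0 lower genes, and DESeq2 called 1 higher. Their median log2 fold change was 0.07. The actin cross-linker FLNA (0.14) and TLN1 (0.08), the talin that activates integrins, were the most abundant of them and did not pass. Of 16 tested integrin regulators and surface partners 1 was higher, with a median of 0.17. This was CD47, a surface partner of ITGB3 integrins and thrombospondin receptor, with 171 and 163 CPM in RB1 KO libraries against 137 and 128 CPM in wild-type libraries (0.34, edgeR, adjusted p = 0.0742). The call was lost with the replicate number as a block (0.34, adjusted p = 0.228), with library totals (0.27, adjusted p = 0.112) and without the filter (0.34, adjusted p = 0.110). With each library left out its log2 fold change was 0.29 to 0.40. The endocytic receptor LRP1 (0.33) and the caveolar protein CAV1 (0.17) did not pass.

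**Figure D4:**
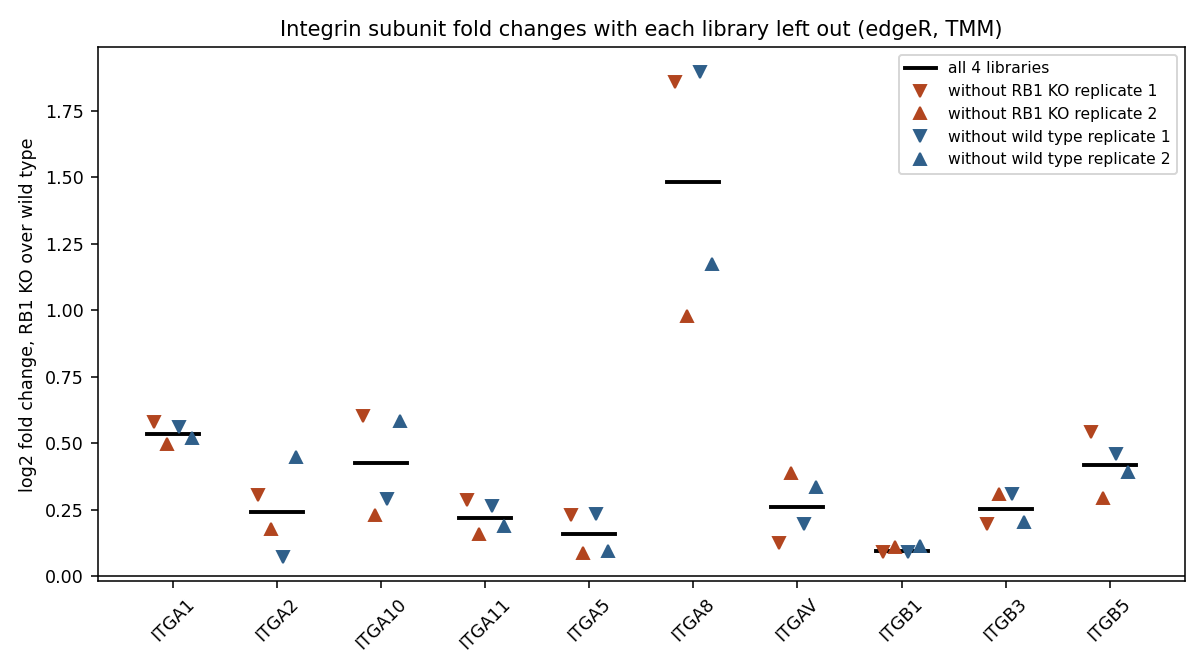
Log2 fold change of RB1 KO over wild type for each gene with all 4 libraries (black bars) and with each library left out in turn (triangles). All values are above 0, ITGA1 stays within 0.50 to 0.58, and ITGA8 spreads most, from 0.98 to 1.90.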

How the data were processed

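RNA was sequenced from confluent IMR-90 cells, with 2 RB1 KO and 2 wild-type libraries grouped by their labels. The authors depleted ribosomal RNA, made directional paired-end libraries, aligned reads to GRCh37 with STAR (the submitters' processing notes give version 2.7.2b), kept reads with a single mapping place and counted them by gene with GENCODE v19. What they deposited are raw counts, not normalized. The strand column kept is not given in the sources used here, and reads shared by overlapping genes are left out. Of 57820 gene IDs, 55538 were paired with a symbol and placed with a later release of GENCODE on GRCh37 coordinates, which also gave the exon and transcript lengths. The 92 ERCC, 7 SIRV and 4 summary lines were not tested or added to library sizes, and ERCC counts served only for the ERCC factors below. No-feature reads were 12.96% to 15.56% and ambiguous reads 2.06% to 2.17% of the table.

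Counts were fitted on genotype by quasi-likelihood in edgeR 4.0.16 (R 4.3.3) with TMM factors. The filter filterByExpr used 10 as its minimum count and 15 as its minimum total, and Benjamini-Hochberg adjustment covered all genes kept. The study's own cutoff, an adjusted p under 0.1, was used. Replicates of a genotype differed well beyond sampling noise (chi-square over its degrees of freedom, 17.6 for RB1 KO and 18.8 for wild type). Among the 10 integrin genes, counting error weighs most on the lowest, ITGA10, with 45 to 76 counts. The fit was tested on simulated data. No paired design is stated.

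The integrin genes, the 14 gene lists and the tests were chosen with earlier results of these data known. All 10 integrin genes, RB1 and each other integrin subunit tested are named. The 5 lists of ligands, plaque proteins, regulators and other receptors each contributed passing genes in order of p, at most 4, or the 2 highest in mean CPM where fewer than 2 passed. The marker lists are given as sums, and their called genes are named. PELO is named for its overlap with ITGA1. Alternatives were DESeq2 1.42.0, limma-voom (limma 3.58.1), RLE, upper-quartile, library-total and ERCC factors, other filters, an adjusted p under 0.05, a replicate block, other lengths and leaving out each library.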

Additional observations from a re-analysis of the deposited data

Results flagged for a closer look

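The ERCC spike-in RNA, which was used for scaling in an alternative and is compared nowhere itself, took a larger share in both RB1 KO libraries than in both wild-type libraries. Relative to the counts in genes they made up 0.207% and 0.210% in RB1 KO libraries and 0.187% and 0.135% in wild-type libraries. They were singled out as a signal in lines of the table outside the genes that lies above its level in the control samples. The SIRV spike-in lines, not used for scaling, also had more counts in both RB1 KO libraries (71182 and 72068) than in both wild-type libraries (61561 and 41737). The amounts added are not given in the sources used here, so what the ERCC share stands for was not tested. It bears on the integrin genes because scaling to it turned 8 of the 10 log2 fold changes negative, while all 10 stayed above the median of all genes.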

How the results depend on the processing

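With TMM, 327 genes were higher, 149 lower and 3 of the integrin genes higher, and in the 6 lists around them (other integrins, collagen ligands, fibronectin and vitronectin receptor ligands, plaque proteins, regulators and non-integrin receptors, called the context lists here) 3 were higher and 1 lower. Library totals gave 221 genes higher, 326 genes lower and 2 in the context lists lower, upper-quartile factors 2 in the context lists lower, and leaving out the filter gave 7 in the context lists higher and 90 genes lower. DESeq2 gave 426 genes higher and 158 lower, with 14 higher and 2 lower in the context lists. With limma-voom 313 genes were higher and 132 lower, with 5 higher in the context lists. An adjusted p under 0.05 left 157 genes higher, 65 lower and 1 integrin gene. Leaving out each library gave 184 to 770 genes higher and 69 to 661 lower, 2 to 5 integrin genes higher, and 2 to 10 higher and 1 to 3 lower in the context lists. The most integrin genes, 5, were called without RB1 KO replicate 2. The cause of these shifts was not tested. ITGB5 was also lost with library totals (0.35, adjusted p = 0.104 in edgeR) and without the filter (0.43, adjusted p = 0.112 in edgeR).

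With the replicate number as a block 152 genes were higher and 74 lower. Same-numbered libraries had correlated deviations of -0.34 and the labels state no pairing. A crossed block, chosen after seeing the data, called 1611 genes higher and 1362 lower, with 7 integrin genes higher and 31 higher and 4 lower in the context lists.

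ERCC factors left 11 genes higher and 168 lower, with 0 integrin genes and 0 in the context lists higher. They gave log2 fold changes of -0.27 for ITGA2, -0.065 for ITGA10, -0.25 for ITGA11, -0.31 for ITGA5, -0.23 for ITGAV, -0.39 for ITGB1, -0.22 for ITGB3 and -0.057 for ITGB5. The same factors gave -0.41 for ITGA3, -0.36 for ITGA4, -0.45 for ITGA9, -0.40 for ITGB6, -0.18 for COL1A1, -0.040 for COL1A2, -0.33 for FLNA, -0.39 for TLN1, -0.13 for CD47, -0.17 for LRP1, -0.29 for CAV1, -0.28 for MRC2, -0.35 for DDR2 and -0.36 for RB1. In every other setting all 10 integrin genes were positive, and their median stood 0.26 to 0.36 above that of all genes.

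Genes near no change turned sign. With library totals ITGA3 was at -0.019 and ITGA9 at -0.038. With each library left out, ITGA3 ran from -0.20 (without RB1 KO replicate 2) to 0.26, and was at -0.07 without wild-type replicate 2. ITGA9 ran from -0.12 to 0.20, with -0.11 without RB1 KO replicate 1. ITGAE ran from -0.10 to 0.037, ITGB6 from -0.30 to 0.65, ITGB8 from -0.37 to 0.051, TLN1 from -0.0026 to 0.16, DDR2 from -0.036 to 0.30 and PELO from -0.13 to 0.12, with 0.0028 without RB1 KO replicate 1.

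Lengths change levels between genes. The ratio of alpha to beta level was 0.845 in RB1 KO and 0.773 in wild type by the union of exons. By the longest transcript it was 0.533 and 0.481, and by the canonical transcript 0.401 and 0.362. The ratio of ITGB1 to ITGB5 per length was 7.26 in RB1 KO and 9.02 in wild type by the union of exons, 12.8 and 15.9 by the longest transcript and 19.3 and 24.0 by the canonical transcript, which was added after seeing the data. The collagen-binding share of the alpha level was 44.9% in RB1 KO and 42.8% in wild type by the union, 37.1% and 34.7% by the longest and 33.9% and 31.4% by the canonical transcript. It was separate between genotypes by the other lengths, though barely, and not by the union. By the longest transcript the lower RB1 KO library had 36.29% and the higher wild-type library 36.26%. By the canonical transcript these were 33.06% and 32.98%. Among the integrin subunits tested, counts were lowest for ITGB6, ITGA9 and ITGA10, whose intervals are among the widest.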

Other observations

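Of the other integrin subunit genes, 8 were too low to test. ITGA2B, the platelet partner of ITGB3, had 2 and 4 counts in RB1 KO libraries and 4 and 7 counts in wild-type libraries. The leukocyte subunits ITGAD and ITGAL had 0 counts in all 4 libraries. ITGB2, the leukocyte beta chain, had 13 and 2 counts in RB1 KO libraries and 2 and 3 counts in wild-type libraries. ITGB4, the beta chain of epithelial hemidesmosomes that pairs with ITGA6, had 10 and 5 counts in RB1 KO libraries and 11 and 8 counts in wild-type libraries.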
